A study of Homo sapiens with 14 samples.

Results

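A set of 10 genes that encode cell surface ligands for T cells and natural killer (NK) cells was followed across 2 human cancer cell lines and 4 drug treatments. They are CD274 (PD-L1), PDCD1LG2 (PD-L2) and CD276 (B7-H3) of the B7 family, the NKG2D ligands ULBP1, ULBP2, ULBP3, MICA and MICB, and PVR (CD155) and NECTIN2 (CD112). The genes were taken by symbol, and all 10 were found among the 60683 Ensembl genes with counts.

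B7 family ligands bind receptors on T cells, and CD274 and PDCD1LG2 both engage the inhibitory receptor PD-1. NKG2D is an activating receptor of NK cells and of cytotoxic T cells, and its ligands are distant relatives of MHC class I that many cells carry at low levels and raise under stress, DNA damage or senescence. PVR and NECTIN2 bind the activating receptor DNAM-1 and, in competition with it, the inhibitory receptors TIGIT and, for NECTIN2, PVRIG.

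The study looked for ways to strengthen the senescence that CDK4/6 inhibition starts in cancer cells. A549, a lung cancer line, was left untreated or was given palbociclib (a CDK4/6 inhibitor) at 2 µM, indisulam (a sulfonamide that leads to degradation of the splicing factor RBM39) at 0.5 µM, or both at these doses, for 10 days, or PF-06873600, which inhibits CDK2 as well as CDK4/6, at 0.5 µM for 7 days. SUM159, a triple-negative breast cancer line, was left untreated or was given PF-06873600 at 0.5 µM for 7 days. SUM159 was grown in a different medium, with insulin and hydrocortisone, which the A549 medium lacked. Differences between the lines therefore cannot be told apart from those of the medium. Each of the 7 groups had 2 poly(A) RNA libraries, described as technical duplicates, so every p below measures the spread between such libraries and not between independent cultures. When the untreated cells were harvested is not given in the sources used here, so treatment cannot be told apart from time in culture.

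Counts on genes ran from 13060374 to 21149256 per library, and 3 counts, taken as the smallest level a library can show, were worth 0.142 to 0.230 CPM (counts scaled to a common library total). Intervals and limits from counts cover counting error only. Both libraries of a group correlated at r = 0.993 to 0.997 across genes, and the counts of every pair differed by more than sampling noise (chi-square per degree of freedom 1.61 to 9.57, the highest in untreated A549). A549 libraries held the epithelial transcripts KRT8, KRT18, EPCAM and CDH1, whereas the lung surfactant genes SFTPA1, SFTPB and SFTPC were at 0.451 CPM or less. With NKX2-1 and NAPSA included, the 5 lung alveolar markers summed to 0.733 to 1.09 CPM in untreated A549 and to 4.25 CPM with both drugs. SUM159 libraries had VIM at 3609 to 4318 CPM and CDH1 at 0.818 CPM or less. The mesenchymal markers VIM, CDH2, ZEB1 and FN1 summed to 7333 to 17680 CPM in SUM159 and to 2250 to 3727 CPM in A549. The 5 epithelial markers, KRT19 included, summed to 428 to 755 CPM in SUM159 and to 4672 to 11850 CPM in A549. ESR1, PGR and ERBB2 summed to 118 to 131 CPM in SUM159, with PGR at 0 counts. Markers of NK and T cells summed to 2.65 to 4.49 CPM over 9 genes in A549 and to 22.0 to 31.8 CPM in SUM159, most of it PTPRC (9.35 and 9.89 CPM untreated, 17.9 and 20.3 CPM with PF-06873600) and NCAM1 (10.9 to 13.3 CPM), and CD3E was at 0 in all 14 libraries. PDCD1, which encodes the PD-1 receptor, was also at 0 in all 14 libraries. In bulk RNA, fewer cells that express a gene and less of its RNA per cell cannot be told apart, and RNA levels say nothing of the amount of ligand on the surface.

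**Figure D1:**
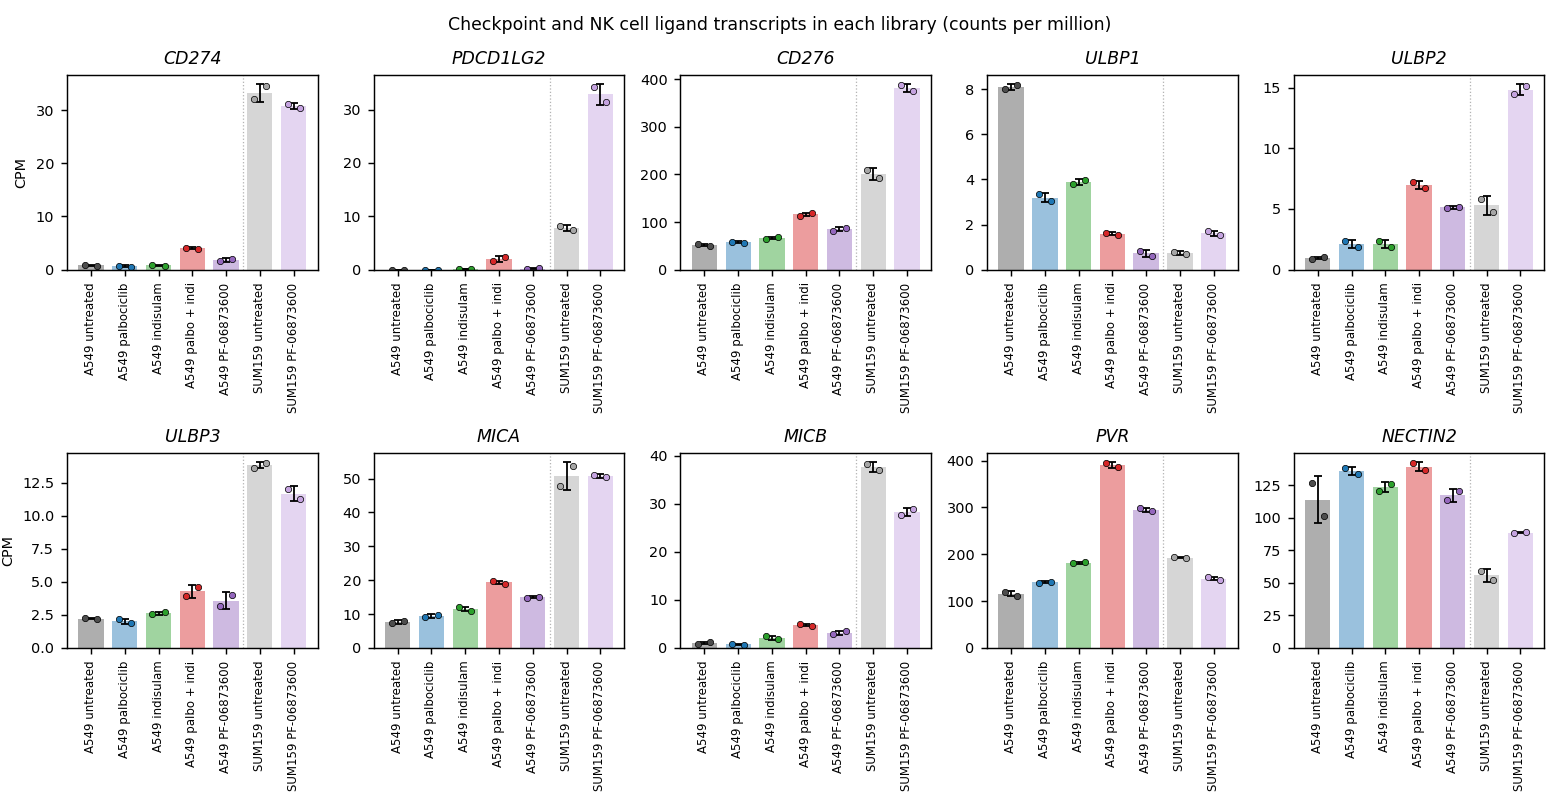
Level of each ligand transcript in CPM (linear axes from 0, a different scale in each panel) in the 5 A549 groups and, right of the dotted line, the 2 SUM159 groups; points are libraries, bars their mean and error bars the SD (n = 2). In A549, ULBP1 is highest in untreated cells (8.02 and 8.20 CPM), whereas CD274, CD276, ULBP2, MICA, MICB and PVR are highest with palbociclib and indisulam together.

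In A549 the combination of palbociclib and indisulam raised 9 of the 10 ligand genes over untreated cells, from 1.22-fold for NECTIN2 to 7.36-fold for ULBP2 and at least 9.92-fold for PDCD1LG2, and lowered ULBP1 to 0.196 of its untreated level. Over all 15780 genes tested in A549, 35.1% were called higher and 30.0% lower in the same comparison, at an adjusted p under 0.05 in edgeR's quasi-likelihood test with Benjamini-Hochberg adjustment, which is used throughout. The median log2 fold change was 1.54 over the 10 ligand genes and 0.05 over all genes tested. PDCD1LG2 entered the A549 tests only through its reads in the combination libraries, where it is high, so its A549 calls add no support of their own. Without it the median was 1.33 over 9 genes. All values against untreated A549 share the same 2 untreated libraries.

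Neither drug alone gave this pattern. Palbociclib raised 2 of the 10 genes, ULBP2 and PVR (background 8.30% of genes higher), and lowered ULBP1 (background 7.40% lower). The median log2 fold change with palbociclib was 0.14 over 9 ligand genes, PDCD1LG2 having no read in either group, and -0.01 over all genes. Indisulam raised 5, CD276, ULBP2, MICA, MICB and PVR (background 28.0% higher), and again lowered ULBP1 (background 17.5% lower), with a median of 0.37 over 9 genes against 0.08 over all. Against palbociclib alone, the combination was higher for 8 ligand genes and lower for 1 (background 33.5% and 26.9%; medians 1.28 and 0.05), and against indisulam alone it was higher for 8 and lower for 1 (background 22.0% and 23.9%; medians 0.95 and -0.02). The gene that was lower was ULBP1 in each of these comparisons, and the gene with no call in both was NECTIN2. PDCD1LG2 was among the 8 higher in both, and without it the medians were 1.085 and 0.79 over 9 genes.

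PF-06873600 in A549 gave calls for 8 genes higher and for ULBP1 lower (background 28.5% and 27.8%). The median log2 fold change was 0.84 with PDCD1LG2 set at its counting limit (-0.32), against -0.01 over all genes. Without PDCD1LG2 the median was 0.97 over 9 genes. One of the 8, PDCD1LG2, rested on 1 and 4 reads against none, and was tested only because of its reads in the combination libraries. Without the second PF-06873600 library, and likewise by DESeq2, 5 were called higher, CD274, PDCD1LG2 and ULBP3 having dropped out.

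**Figure D2:**
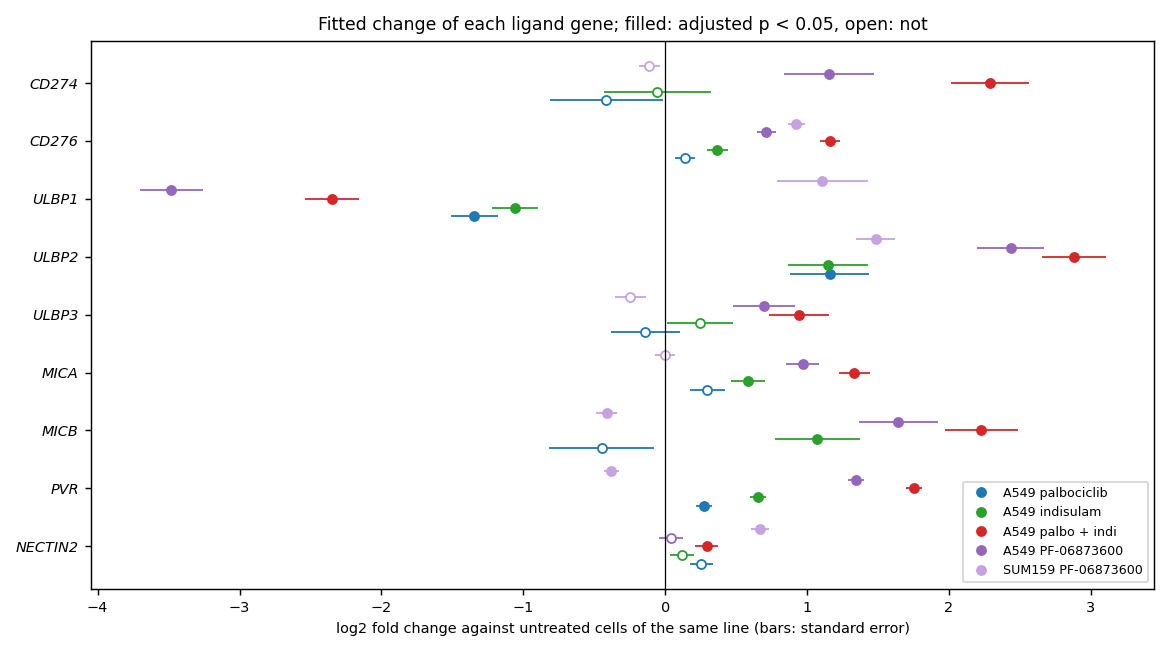
Fitted log2 fold change of 9 ligand genes against untreated cells of the same line (x axis), for 4 treatments of A549 and for SUM159. Bars are standard errors derived from edgeR's F statistic, with 2 libraries per group. Filled points have an adjusted p under 0.05. PDCD1LG2 is left out because untreated A549 had 0 reads. ULBP1 is the gene whose A549 points all lie left of 0 with a call, from -1.06 with indisulam to -3.48 with PF-06873600, and it lies right of 0 in SUM159.

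CD274 encodes PD-L1, the main ligand of PD-1, and lies at chr9:5450503-5470566 on the plus strand (hg38, GENCODE release 44). Untreated A549 had 0.884 and 0.733 CPM, palbociclib 0.742 and 0.488 CPM, and indisulam 0.829 and 0.727 CPM. With both drugs the libraries had 4.11 and 3.86 CPM, and with PF-06873600 they had 1.53 and 2.04 CPM. The combination and PF-06873600 libraries thus lay above every other A549 library and did not overlap each other. In reads these were small numbers, 13 and 11 untreated against 58 and 60 with both drugs. The log2 fold change was 2.29 ± 0.28 (SE) with the combination (edgeR adjusted p = 4.2e-06), or 4.89-fold, against -0.41 ± 0.40 with palbociclib (adjusted p = 0.57) and -0.06 ± 0.38 with indisulam (adjusted p = 0.92). PF-06873600 gave 1.15 ± 0.32 (adjusted p = 0.0065), a call lost without its second library (adjusted p = 0.085) and by DESeq2 (adjusted p = 0.062).

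The sequence before the CD274 start is shown because the gene is a known target of interferon signalling and several genes of that route moved in the same libraries. The RefSeq window of 250 bases before the start at chr9:5450542 was searched on both strands, and the 211 bases before the first annotated exon are printed (chr9:5450292-5450502, GRCh38.p14, plus strand), with interferon-type motifs in capitals.
CD274: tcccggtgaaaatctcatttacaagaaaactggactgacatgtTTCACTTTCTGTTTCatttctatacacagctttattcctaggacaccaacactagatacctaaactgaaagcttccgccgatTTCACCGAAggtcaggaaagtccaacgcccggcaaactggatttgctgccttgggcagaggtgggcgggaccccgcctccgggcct
The capitals are 2 overlapping matches to GAAANNGAA, the core of the interferon-stimulated response element, on the minus strand at 207 to 199 and 201 to 193 bases before the start, and 1 match to TTCNNNGAA, the interferon gamma activated site, at 125 to 117 bases. Of all 34788 RefSeq promoter windows, 6.89% held the first motif and 6.57% the second. A match is a description of the letters and was not tested for binding.

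PDCD1LG2 encodes PD-L2, the other ligand of PD-1, and lies 39964 bases downstream of CD274 (chr9:5510531-5571282, plus strand). It had 0 reads in both untreated and both palbociclib libraries of A549, 1 read in each indisulam library, and 22 and 38 reads (1.56 and 2.45 CPM) with the combination. Only the combination libraries had enough reads to bring it into the A549 tests. Against the limit of 3 counts per library, the combination was at least 9.92-fold higher than untreated (edgeR adjusted p = 1e-05) and at least 9.87-fold higher than palbociclib (adjusted p = 1.2e-05). Its 60 reads against 2 with indisulam, scaled for depth, gave a ratio of 29.96 with an exact 95% interval of 7.94 to 253 (adjusted p = 5.9e-05). PF-06873600 libraries had 1 and 4 reads, whose mean lay under the limit, so no fold is given. That comparison had an adjusted p of 0.044, which rose to 0.25 without the second PF-06873600 library, to 0.11 and 0.12 without either untreated library, and to 0.074 by DESeq2.

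CD276 encodes B7-H3, a broadly expressed B7 protein of many solid tumours with no settled receptor (chr15:73683966-73714514, plus strand). Untreated A549 had 53.5 and 50.3 CPM, palbociclib 58.9 and 55.6, indisulam 65.2 and 68.7, the combination 114 and 118, and PF-06873600 81.6 and 88.4 CPM. The 5 groups did not overlap, and they stood in the order untreated, palbociclib, indisulam, PF-06873600 and combination. The combination raised it 2.23-fold (log2 fold change 1.16 ± 0.07, edgeR adjusted p = 1.8e-09), indisulam by 0.37 ± 0.07 (adjusted p = 0.00071) and PF-06873600 by 0.71 ± 0.07 (adjusted p = 7.2e-07) on the log2 scale. With palbociclib the log2 fold change was 0.14 ± 0.07 (adjusted p = 0.22).

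ULBP1 and ULBP2 are NKG2D ligands whose genes lie 14707 bases apart in the same orientation (ULBP2 at chr6:149942014-149949235 and ULBP1 at chr6:149963943-149973715, plus strand), and they moved in opposite directions in A549. ULBP1 stood at 8.02 and 8.20 CPM in untreated cells, 3.34 and 3.05 with palbociclib, and 3.80 and 3.97 with indisulam. It was lower still with the combination, at 1.63 and 1.55 CPM, and with PF-06873600, at 0.842 and 0.618 CPM. No treated library overlapped the untreated ones. The log2 fold change was -1.35 ± 0.17 with palbociclib (edgeR adjusted p = 8.2e-05), -1.06 ± 0.16 with indisulam (adjusted p = 0.0001), -2.35 ± 0.19 with both (adjusted p = 5.9e-08) and -3.48 ± 0.22 with PF-06873600 (adjusted p = 8.4e-09). The combination was also lower than palbociclib alone (-1.0 ± 0.22, adjusted p = 0.0012) and than indisulam alone (-1.29 ± 0.21, adjusted p = 0.00019). These ULBP1 calls held in every setting tried, with each library left out in turn.

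ULBP2 had 0.884 and 1.00 CPM in untreated A549, 2.38 and 1.89 with palbociclib, and 2.35 and 1.85 with indisulam. The combination libraries had 7.23 and 6.76 CPM and the PF-06873600 libraries 5.05 and 5.19 CPM. All 8 treated libraries lay above both untreated ones, and those of the single drugs overlapped each other. The combination raised it 7.36-fold (log2 fold change 2.88 ± 0.23, edgeR adjusted p = 4.3e-08), the largest fold among the ligand genes with reads in untreated A549, and PF-06873600 raised it 5.40-fold (2.43 ± 0.24, adjusted p = 7.3e-07). The log2 fold change was 1.16 ± 0.28 with palbociclib (adjusted p = 0.011) and 1.15 ± 0.28 with indisulam (adjusted p = 0.0041). The palbociclib call was lost without that group's first library (adjusted p = 0.083) and in a fit of only the compared groups (adjusted p = 0.064). Of the 65-base stretches in ULBP2 transcripts, 25.3% also occur in RAET1L or RAET1G, so part of its reads could not be placed on it alone, and its values carry that uncertainty.

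The sequences before both starts are shown because these neighbours, which face the same way, moved in opposite directions; capitals mark the only match to the 7 motifs searched. Both windows are the 250 bases before the RefSeq start on the plus strand of GRCh38.p14, chr6:149963693-149963942 for ULBP1 and chr6:149941764-149942013 for ULBP2.
ULBP1: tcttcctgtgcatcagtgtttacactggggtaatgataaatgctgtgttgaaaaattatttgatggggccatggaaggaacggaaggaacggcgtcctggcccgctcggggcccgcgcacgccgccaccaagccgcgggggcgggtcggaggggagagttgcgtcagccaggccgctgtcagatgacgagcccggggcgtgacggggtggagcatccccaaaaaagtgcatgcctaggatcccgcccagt
ULBP2: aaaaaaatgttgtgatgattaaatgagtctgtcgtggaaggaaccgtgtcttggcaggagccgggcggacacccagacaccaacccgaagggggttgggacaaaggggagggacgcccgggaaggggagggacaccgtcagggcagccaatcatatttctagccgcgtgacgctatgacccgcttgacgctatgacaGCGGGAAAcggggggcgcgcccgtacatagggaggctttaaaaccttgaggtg
ULBP2 held 1 E2F-type match (TTTNNCGC on either strand, present in 5.89% of all windows) at 53 to 46 bases before its start. Aligned end to end, the windows were identical at 44% of positions, against 82.7% for those of MICA and MICB. ULBP1 held none of the letters searched, which besides the E2F and interferon motifs were TGANTCA (AP-1, in 6.59% of windows), TGACGTCA (cAMP response element, 1.64%), GAANNTTC (heat shock element unit, 5.8%) and TGATGNAA (ATF4 composite element, 3.16%). MICA and MICB each held 1 heat shock unit, GAATTTTC, 135 to 128 and 139 to 132 bases before their starts, and NECTIN2 held 1 E2F-type match, TTTAACGC, at 185 to 178 bases.

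ULBP3, the third ULBP gene of the set, lies on the minus strand at chr6:150061053-150069121. Its levels were 2.24 and 2.2 CPM in untreated A549, 2.15 and 1.89 with palbociclib, 2.56 and 2.71 with indisulam, 3.90 and 4.63 with the combination, and 3.14 and 4.02 with PF-06873600. The combination raised it 1.92-fold (log2 fold change 0.94 ± 0.21, edgeR adjusted p = 0.0013), while the single drugs gave -0.14 ± 0.24 (palbociclib, adjusted p = 0.76) and 0.25 ± 0.23 (indisulam, adjusted p = 0.41). Its rise with PF-06873600 (0.70 ± 0.22, adjusted p = 0.014) was no longer called without the second PF-06873600 library (adjusted p = 0.16) or by DESeq2 (adjusted p = 0.11). That of the combination over indisulam (0.70 ± 0.21, adjusted p = 0.012) was lost without the first indisulam library (adjusted p = 0.069), without the second combination library (adjusted p = 0.12) and by DESeq2 (adjusted p = 0.11).

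MICA and MICB, the NKG2D ligands encoded within the MHC, lie 79565 bases apart on the plus strand (chr6:31399784-31415315 and chr6:31494881-31511124). MICA had 7.34 and 8.0 CPM in untreated A549, 9.05 and 9.76 with palbociclib, 12 and 11 with indisulam, 19.7 and 19.0 with both, and 14.9 and 15.2 with PF-06873600. The 5 groups did not overlap. On the log2 scale indisulam raised MICA by 0.58 ± 0.12 (edgeR adjusted p = 0.0011), the combination by 1.33 ± 0.11 (adjusted p = 8.2e-08) and PF-06873600 by 0.97 ± 0.11 (adjusted p = 5.3e-06). Palbociclib gave 0.30 ± 0.12 (adjusted p = 0.12).

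MICB was scarcer, with 0.816 and 1.20 CPM in untreated A549, 0.816 and 0.671 with palbociclib, 2.42 and 1.85 with indisulam, 4.96 and 4.57 with the combination, and 2.83 and 3.46 with PF-06873600. Untreated and palbociclib libraries overlapped, and the other groups lay above them. The combination raised MICB 4.69-fold (log2 fold change 2.23 ± 0.26, edgeR adjusted p = 3e-06) and PF-06873600 3.12-fold (1.64 ± 0.28, adjusted p = 0.00015). Palbociclib gave -0.45 ± 0.37 (adjusted p = 0.49). The indisulam value was 1.07 ± 0.30 (adjusted p = 0.0093), a call lost without the first untreated library (adjusted p = 0.071), without the first indisulam library (adjusted p = 0.085) and by DESeq2 (adjusted p = 0.081).

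PVR encodes CD155, the high-affinity ligand of DNAM-1 and TIGIT (chr19:44643798-44666162, plus strand). It was abundant in all groups, at 120.2 and 112 CPM in untreated A549, 139 and 141 with palbociclib, 181 and 184 with indisulam, 395 and 387 with the combination, and 298 and 292 with PF-06873600. The 5 groups did not overlap. The log2 fold change was 1.75 ± 0.06 with the combination (3.37-fold, edgeR adjusted p = 2.6e-12), 1.35 ± 0.06 with PF-06873600 (adjusted p = 9.8e-11), 0.65 ± 0.06 with indisulam (adjusted p = 4.4e-07) and 0.27 ± 0.06 with palbociclib (adjusted p = 0.005). The palbociclib call was lost without the second palbociclib library (adjusted p = 0.051) and in a fit of only the compared groups (adjusted p = 0.087). PVR shares 121 exon bases on the same strand with CEACAM19, which had 54 to 617 reads per library. It shares a further 2028 with the unclassified gene model ENSG00000279095, which had 0 counts in every library, and the part of this overlap in the PVR level was not tested.

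NECTIN2, whose gene lies 180012 bases further along (chr19:44846175-44889223, plus strand), moved least of the ligand genes with the combination and with PF-06873600. Its untreated A549 libraries were far apart, at 127 and 101 CPM, and palbociclib had 138 and 134, indisulam 121 and 126, the combination 142 and 137, and PF-06873600 114 and 121 CPM. The indisulam and PF-06873600 libraries fell within the untreated range. The combination raised it 1.22-fold (log2 fold change 0.29 ± 0.08, edgeR adjusted p = 0.0068), a call lost without the second untreated library (adjusted p = 0.057) or the first combination library (adjusted p = 0.054). Palbociclib gave 0.25 ± 0.08 (adjusted p = 0.053), indisulam 0.12 ± 0.08 (adjusted p = 0.27) and PF-06873600 0.04 ± 0.08 (adjusted p = 0.69). Without the first untreated library, the one at 127 CPM, these 3 values became 0.42, 0.29 and 0.21. The palbociclib value was called with TMM scaling (adjusted p = 0.045), with no filter on low counts (adjusted p = 0.0063) and by DESeq2 (adjusted p = 0.049).

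Whether the combination differed from the sum of its single-drug effects on the log2 scale was tested as the interaction of palbociclib and indisulam. It was above 0 for 4 of the 10 genes, CD274, CD276, MICB and PVR, and below 0 for none (background 10.7% and 14.5%), with 0 below 0 also at an unadjusted p under 0.05 and by DESeq2. The median interaction was 0.65 over 9 genes against -0.02 over all genes tested. CD274 had the largest, 2.76 ± 0.50 (edgeR adjusted p = 0.00091), with neither drug alone past the threshold. PVR had 0.83 ± 0.08 (adjusted p = 2.9e-06) and CD276 0.65 ± 0.10 (adjusted p = 0.0002). MICB had 1.61 ± 0.44 (adjusted p = 0.014), lost without the second untreated library (adjusted p = 0.088), without the second palbociclib library (adjusted p = 0.066) and by DESeq2 (adjusted p = 0.062).

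The other ligand genes had no interaction call. ULBP3 had 0.84 ± 0.32 (edgeR adjusted p = 0.07), MICA 0.45 ± 0.16 (adjusted p = 0.053), and ULBP2 0.57 ± 0.36 (adjusted p = 0.29). The MICA value was called among genes at a mean of at least 50 counts (adjusted p = 0.042), and was 0.51 without the first untreated library. For ULBP1 the interaction was 0.06 ± 0.29 (adjusted p = 0.92), and its fall with both drugs was not told apart from the sum of the single falls. NECTIN2 had -0.08 ± 0.12 (adjusted p = 0.67), and -0.25 (adjusted p = 0.025) without the first untreated library. PDCD1LG2 could not be estimated, with no read in 2 of the 4 groups.

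In SUM159, PF-06873600 raised 5 of the 10 genes (PDCD1LG2, CD276, ULBP1, ULBP2 and NECTIN2) and lowered 2 (MICB and PVR), against a background of 38.1% higher and 35.6% lower among 15055 genes tested. The median log2 fold change was 0.33 over the ligand genes and 0.02 over all genes. These counts lie near the background shares and are no result about the set as a whole.

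PDCD1LG2 showed the largest fold in SUM159, from 8.20 and 7.39 CPM to 34.3 and 31.5 CPM, a 4.20-fold rise (log2 fold change 2.07 ± 0.10, edgeR adjusted p = 1.6e-10). Its neighbour CD274 stood at 32.0 and 34.5 CPM untreated and at 31.2 and 30.4 CPM treated, with a log2 fold change of -0.11 ± 0.08 (adjusted p = 0.19). The PDCD1LG2 groups did not overlap, and the treated CD274 libraries lay just under the untreated ones. CD276 rose 1.90-fold, from 209 and 192 to 388 and 375 CPM (0.92 ± 0.06, adjusted p = 2.6e-09).

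Among the NKG2D ligands of SUM159, ULBP2 rose from 5.85 and 4.76 to 14.5 and 15.2 CPM (log2 fold change 1.48 ± 0.14, edgeR adjusted p = 1.3e-07). ULBP1 went from 0.784 and 0.689 to 1.70 and 1.51 CPM, or from 13 and 11 reads to 29 and 32 (1.11 ± 0.32, adjusted p = 0.0061), a call lost without the first treated library (adjusted p = 0.061) and by DESeq2 (adjusted p = 0.098). MICB fell from 38.4 and 37.0 to 27.7 and 28.8 CPM (-0.41 ± 0.07, adjusted p = 0.00013). MICA and ULBP3 were not called. MICA had 47.9 and 53.7 CPM untreated and 51.2 and 50.4 treated, the treated values inside the untreated range (0.00 ± 0.07, adjusted p = 1), and ULBP3 had 13.6 and 14 against 12 and 11.3 CPM (-0.25 ± 0.11, adjusted p = 0.055).

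The DNAM-1 ligands of SUM159 went opposite ways. PVR fell from 193 and 192 to 150.4 and 145 CPM (log2 fold change -0.38 ± 0.05, edgeR adjusted p = 1.2e-05), and NECTIN2 rose from 59.2 and 52.3 to 88.2 and 89.0 CPM (0.67 ± 0.07, adjusted p = 2.6e-07). In neither gene did the groups overlap.

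The response to the same dose and time of PF-06873600 differed between the lines for 8 of the 10 genes in the test of the difference itself (SUM159 response minus A549 response, 14 libraries, 17279 genes). The difference was positive for 2, ULBP1 and NECTIN2, and negative for 6 (background 25.8% and 27.2%), with a median of -0.96 over the ligand genes and 0.04 over all. ULBP1 was furthest apart, by 4.59 ± 0.37 on the log2 scale (edgeR adjusted p = 3.9e-09), and moved in opposite directions in the 2 lines. The PVR difference was -1.73 ± 0.08 (adjusted p = 1.1e-12) and that of MICB -2.06 ± 0.26 (adjusted p = 2e-06), and both genes rose in A549 and fell in SUM159.

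CD274 (-1.27 ± 0.30, edgeR adjusted p = 0.0014), MICA (-0.97 ± 0.14, adjusted p = 5.8e-06) and ULBP3 (-0.95 ± 0.24, adjusted p = 0.0023) were called higher in A549 alone, and their responses differed between the lines. NECTIN2 differed by 0.63 ± 0.12 (adjusted p = 0.00016). ULBP2 rose in both lines and by less in SUM159 (-0.95 ± 0.29, adjusted p = 0.0096), a difference lost without the first untreated A549 library (adjusted p = 0.055) and by DESeq2 (adjusted p = 0.073). CD276 also rose in both, with a difference of 0.21 ± 0.09 (adjusted p = 0.057). That difference was called with TMM scaling (adjusted p = 0.024) and among genes at a mean of at least 50 counts (adjusted p = 0.046). With each library left out in turn it ran from 0.152 to 0.274. For PDCD1LG2 the adjusted p was 0.21, with at most 4 reads in the A549 libraries of this test.

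**Figure D3:**
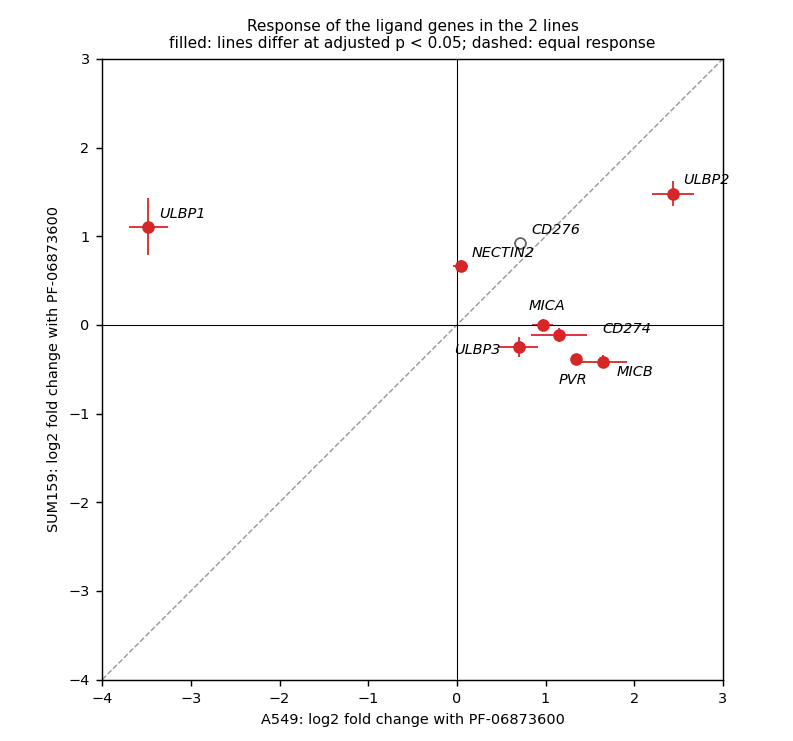
Log2 fold change of 9 ligand genes with PF-06873600 in A549 (x axis) and SUM159 (y axis), 2 libraries per group; bars are standard errors, the dashed line marks equal responses, and filled points are genes whose responses differ at an adjusted p under 0.05. ULBP1 lies alone at the upper left (-3.48 and 1.11), CD276 and ULBP2 rise in both lines, and PVR and MICB are called higher in A549 and lower in SUM159.

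Before treatment the lines differed for all 10 genes, with 8 higher and 2 lower in SUM159 than in A549 (background 41.9% and 36.8%; medians 2.56 and 0.08). CD274 was 40.7-fold higher in SUM159 (log2 difference 5.35 ± 0.17, edgeR adjusted p = 4.3e-16) and MICB 37.0-fold higher (5.21 ± 0.16, adjusted p = 4.2e-16), while PDCD1LG2 was at least 38.6-fold higher, with 136 and 118 reads against none (adjusted p = 3.6e-11). The lower ones were ULBP1, by -3.44 ± 0.22 (adjusted p = 2.7e-11), and NECTIN2, by -1.03 ± 0.09 (adjusted p = 1.4e-09). MICA (2.73 ± 0.10), ULBP3 (2.63 ± 0.16), ULBP2 (2.48 ± 0.23), CD276 (1.95 ± 0.07) and PVR (0.73 ± 0.05) made up the rest, each with an adjusted p of 8.5e-09 or less. Markers of myeloid cells and fibroblasts, 8 genes, summed to 5.60 to 21.7 CPM in A549, 156 to 163 CPM in untreated SUM159 and 1176 to 1218 CPM in treated SUM159, most of it DCN, and the part of this shift in the ligand values was not tested.

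Levels of different genes were compared per kilobase of merged exon length. In untreated A549, NECTIN2 led at 30.4 ± 4.78 CPM per kilobase (SD, n = 2), then PVR at 11.1 ± 0.586, CD276 at 9.47 ± 0.408, ULBP1 at 2.53 ± 0.0395 and MICA at 1.99 ± 0.121. ULBP3 and ULBP2, next at 0.714 and 0.706 CPM per kilobase, were not separated in both libraries, and MICB (0.360), CD274 (0.197) and PDCD1LG2 (0) followed. ULBP1 thus led the 5 NKG2D ligands of the set in untreated A549, and the RAET1 ligands were not compared per kilobase. With the combination it was the last of all 10, at 0.494 ± 0.0190, and ULBP2 (5.24 ± 0.251) and MICA (5.03 ± 0.133) led these 5 without separation from each other. PVR reached 37.5 ± 0.561 CPM per kilobase and was no longer separated from NECTIN2 at 37.2 ± 0.941. Of the 65-base stretches of PVR 18.4% also occur in the overlapping gene models, and the exon length used includes the shared bases. Its place beside NECTIN2 carries that uncertainty, as does the place of ULBP2, with its shared stretches, beside MICA.

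In untreated SUM159, CD276 led at 36.6 ± 2.19 CPM per kilobase, ahead of PVR (18.5 ± 0.0817), NECTIN2 (14.9 ± 1.30), MICB (13.5 ± 0.355) and MICA (13.2 ± 1.06), the last pair not separated. CD274 stood at 8.09 ± 0.417, ULBP3 and ULBP2 at 4.44 and 3.97 without separation, PDCD1LG2 at 3.21 ± 0.236 and ULBP1 last at 0.229 ± 0.0209. After PF-06873600, CD276 was at 69.6 ± 1.63 and NECTIN2, at 23.7 ± 0.155, stood above PVR at 14.2 ± 0.355. PDCD1LG2, at 13.5 ± 0.804, was then not separated from PVR or from MICA (13.2 ± 0.156), while ULBP1 was still last at 0.500 ± 0.0401.

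**Figure D4:**
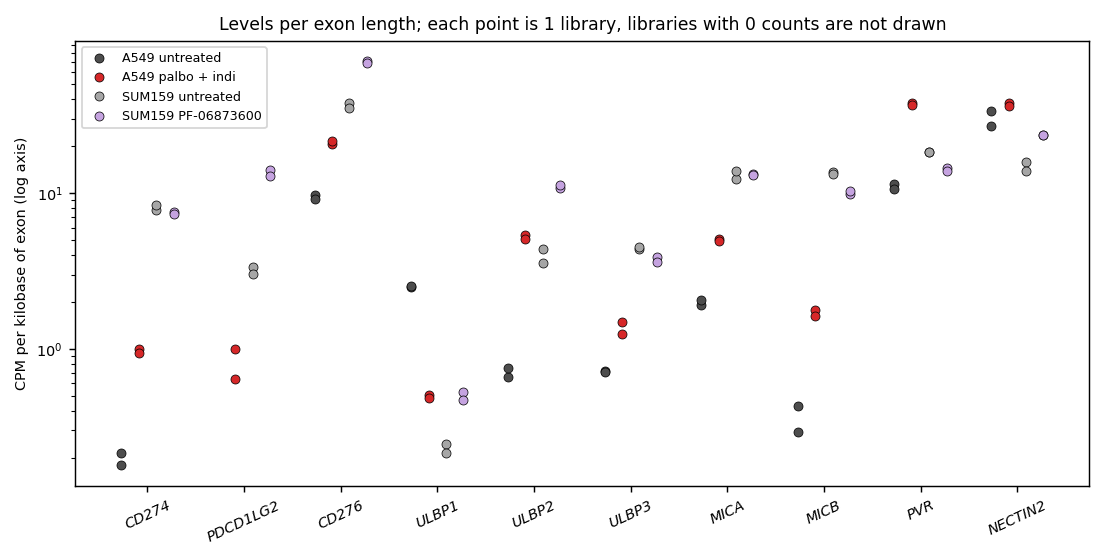
Level of each ligand transcript in CPM per kilobase of exon (log axis) in untreated and combination-treated A549 and in untreated and PF-06873600-treated SUM159; each point is 1 library, and PDCD1LG2 has no untreated A549 points because both libraries had 0 counts. ULBP1 is the fourth highest gene in untreated A549 (2.53 CPM per kilobase) and the lowest of the 10 in the other 3 groups.

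Relatives of the ligands, listed by family, were counted in the same fits. Of 7 other B7 genes, 5 could be tested in A549 and 4 rose and 1 fell with the combination (background 35.1% higher and 30.0% lower). No median is given, since it fell on ICOSLG with 2 and 4 untreated reads. HHLA2, a B7 ligand with both activating and inhibitory receptors, rose from 1 and 4 reads, whose mean lay under the limit of 3 counts, to 101 and 122 reads. VTCN1 (B7-H4), an inhibitor of T cells, rose by 4.21 ± 0.21 from at most 1.40 CPM to 19.6 and 21.8 CPM. NCR3LG1 (B7-H6), the ligand of the activating receptor NKp30, fell by 1.08 on the log2 scale. In SUM159 only 2 of the 7 could be tested and both fell (background 35.6%), VSIR by 0.91 and NCR3LG1 by 0.75.

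The 3 other NKG2D ligand genes rose with the combination in A549 (background 35.1%), with a median log2 fold change of 2.01 when RAET1L, which had 0 untreated reads, is set at its counting limit. RAET1G rose by 2.86 ± 0.24, from 0.733 and 0.816 CPM to 5.60 and 5.73 CPM, and by 1.90 ± 0.34 with PF-06873600 in SUM159. RAET1L and RAET1G share transcript stretches with ULBP2, so reads among the 3 could be split differently. Of 4 other nectins and nectin-like genes, 3 rose and 1 fell with the combination (background 35.1% and 30.0%; median 1.06). NECTIN4, the cell adhesion molecule targeted by an antibody-drug conjugate in bladder cancer, rose by 5.18 ± 0.16, from 0.733 and 1.09 CPM to 32.8 and 33.7 CPM. It rose by 3.73 ± 0.19 with indisulam and by 4.21 ± 0.18 with PF-06873600, and had at most 14 reads in any SUM159 library.

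Of 9 ligands of other inhibitory receptors, 8 rose with PF-06873600 in SUM159 and 0 fell (background 38.1% and 35.6%; median log2 fold change 1.61), among them LGALS9 (galectin-9) by 4.83 ± 0.17, from at most 1.00 CPM to 24.6 and 24.7 CPM, and HLA-E, the ligand of NKG2A, by 1.74 ± 0.06. In A549, where 7 of the 9 could be tested, PF-06873600 raised 3 and lowered 3 (background 28.5% and 27.8%; median -0.34). In the test of the difference between the lines, 8 of 9 had a higher response in SUM159 and 0 a lower one (background 25.8% and 27.2%; median 2.17). The combination in A549 raised 4 of 7 and lowered 1 (background 35.1% and 30.0%; median 0.25), with LGALS9 rising by 2.23 ± 0.30, the adhesion molecule CEACAM1 by 1.78 ± 0.07 and CD47, the ligand of SIRPA, by 1.30 ± 0.07. FGL1, a ligand of LAG-3, was the one that fell, by 2.71 on the log2 scale, from 701 and 748 CPM to 110.3 and 112 CPM, and it fell by 0.98 with PF-06873600 in A549. Of 9 other adhesion or activating ligands, 7 rose and 1 fell in SUM159 among 8 tested (background 38.1% and 35.6%, median 1.44). In A549, PF-06873600 raised 2 of 7 and lowered 1 (background 28.5% and 27.8%, median 0.20). The line difference was called for 3 of the 8, higher in SUM159 for each (background 25.8% higher and 27.2% lower, median 0.13). These were ICAM1, CLEC2B and CD70, which were named here after their values were seen. In SUM159 ICAM1, the ligand of LFA-1, rose by 4.05 ± 0.07 from 12.8 and 13.3 to 213 and 220 CPM. In A549 with the combination 3 of 7 rose and 0 fell (background 35.1% and 30.0%, median 0.14). CD70 rose in both lines, by 2.90 ± 0.16 with the combination in A549 and by 3.43 ± 0.18 in SUM159.

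Most genes listed for the interferon and JAK-STAT route to CD274 were higher. With the combination in A549, 6 of 8 rose and 0 fell (background 35.1% and 30.0%; median 0.90), led by JAK1 (1.59 ± 0.06) and IRF1 (1.44 ± 0.07), the transcription factor that binds the CD274 promoter after interferon. PF-06873600 raised 6 of 8 in A549 (background 28.5%; median 0.76) and 7 of 8 in SUM159 (background 38.1%; median 0.78), IRF1 by 1.09 ± 0.07 and 1.39 ± 0.07. Indisulam alone raised 6 of 8 (background 28.0%; median 0.54), IRF1 by 1.05 ± 0.07, and palbociclib raised 5 and lowered 1 (background 8.30% and 7.40%; median 0.29). In SUM159 with PF-06873600, and in A549 with indisulam alone, CD274 itself had log2 fold changes of -0.11 and -0.06 and was not called. Calls of relatives and regulators come from the same edgeR fits, and in the lists given with 0 falls, 0 members were also lower by DESeq2 or at an unadjusted p under 0.05.

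The genes whose levels followed most of the ligands closely over the 10 A549 libraries were found by Pearson's r on log2(CPM + 0.5) among protein-coding genes at a mean of at least 10 CPM. The libraries share their groups, so these values describe the pattern and carry no p. PVR was closest to MARCHF4 (r = 0.997) and to ACTB, and ULBP1 to CXXC4 (r = 0.997), FOXA1 (r = 0.988) and MTSS1 (r = 0.987). CD276 was closest to NDST1 (r = 0.996), MICA to RAB6B (r = 0.995), ULBP2 to ACO1 (r = 0.992) and MICB to KCNC4 (r = 0.988). The checkpoint ligands CD274 and PDCD1LG2 were closest to ITGA5 (r = 0.986) and IFIT2 (r = 0.983), and ULBP3 to IQGAP1 (r = 0.974).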

How the data were processed

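The authors sequenced 14 stranded poly(A) RNA libraries of A549 and SUM159 cells with single-end reads and aligned them to hg38. The submitters' processing notes list HISAT2 2.2.1 and HTSeq without a role. The authors deposited raw read counts per library on 60683 Ensembl genes, with 9 summary lines for reads set aside, and the annotation release and the use of strand in counting were not given in the sources used here. Reads of low mapping quality made up 8.71% to 11.1% and ambiguous reads 3.06% to 3.56%. Summary lines were left out of totals and tests.

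From these deposited counts, CPM were computed by the total on genes, with symbols, positions and merged exon lengths from GENCODE release 44 (60370 identifiers matched). Groups came from the sample labels. Fold changes and p-values came from edgeR 4.0.16 (R 4.3.3), in quasi-likelihood fits scaled by total counts after filterByExpr. Standard errors were computed as the absolute log2 fold change over the square root of the F statistic. Benjamini-Hochberg adjustment ran over all genes tested, with a threshold of 0.05. A549 was fitted with 10 libraries and SUM159 with 4, and comparisons of the lines used all 14. The edgeR fit was tested on simulated counts for palbociclib against untreated A549 and for PF-06873600 against untreated SUM159. With 2 against 2 libraries an exact permutation test cannot give a two-sided p below 0.33, so it was not used. Promoter sequences came from RefSeq (GRCh38.p14) and matched 9 of the 10 genes, all but PDCD1LG2. Alternatives were TMM factors, no filter, a mean of at least 50 counts, DESeq2 1.42.0, only the compared groups, a replicate block and leaving out each library.

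All 10 ligand genes are named in every comparison. Of 16 gene lists, at most 4 genes per list are named, those with the largest absolute log2 fold changes that passed it. Some genes that these rules would name are not reported here. The ligand genes and the lists were chosen with earlier results of these data known.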

Additional observations from a re-analysis of the deposited data

Results flagged for a closer look

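The response to PF-06873600 at 0.5 µM for 7 days differed between SUM159 and A549 for 8 of the 10 ligand genes in an edgeR test of the difference itself (2 libraries per group). As SUM159 response minus A549 response on the log2 scale, the difference was 4.59 for ULBP1 and 0.626 for NECTIN2. It was -2.06 for MICB, -1.73 for PVR, -1.27 for CD274, -0.967 for MICA, -0.952 for ULBP2 and -0.947 for ULBP3. Over all genes in that test, 25.8% had a positive and 27.2% a negative difference. ULBP1, MICB and PVR were called in both lines and in opposite directions, and ULBP2 was called higher in both. By DESeq2 the ULBP1 call in SUM159 was lost (adjusted p = 0.098), as was the line difference of ULBP2 (adjusted p = 0.073).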

How the results depend on the processing

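Against the values reported, 1037 of the alternative values of single genes and levels kept their direction and call, 27 lost a call, 16 gained one, 13 changed sign and 11 levels moved by more than 1 SD, all 11 with TMM scaling. Of the counts of ligand genes called, 209 alternative values stayed within 1.5 times. The others were these. With palbociclib, 2 genes were called higher, which became 0 in a fit of only the compared groups and ranged from 1 to 3 with each library left out. With TMM scaling, with no filter and by DESeq2 the palbociclib count was 3, which is within 1.5 times. With genes at a mean of at least 50 counts, which fewer ligand genes reach, the genes called higher were 5 (combination against untreated), 4 (against palbociclib), 4 (against indisulam) and 4 (PF-06873600 in A549), and 1 was lower in untreated SUM159. PF-06873600 in A549 gave 5 higher by DESeq2 and 5 to 8 with a library left out, and the interaction gave 0 to 1 lower.

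Signs turned only for values near 0 without a call in the reported fits. With a library left out, log2 fold changes ran from -0.184 to 0.0827 for CD274 and from -0.0354 to 0.286 for NECTIN2 with indisulam, from -0.0096 to 0.120 for the ULBP1 interaction, from -0.250 to 0.0713 for that of NECTIN2, from -0.109 to 0.213 for NECTIN2 with PF-06873600 in A549 and from -0.0806 to 0.0841 for MICA in SUM159. NECTIN2 in the combination against palbociclib was -0.0572 with TMM scaling and -0.0101 by DESeq2, and MICA in SUM159 was -0.00665 by DESeq2. The cause was not tested.

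The replicate numbers did not pair the libraries, the correlation of deviations between same-numbered libraries being -0.194 to 0.138. With the numbers as a replicate block, MICA in SUM159 was -0.000134, and the combination against untreated still had 9 genes higher and 1 lower. With the palbociclib numbers crossed, an alternative chosen after seeing the correlation of -0.194, palbociclib had 3 genes higher and 1 lower.

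Duplicates described as technical, 2 per group, limit every p to the spread between such libraries. Genes under about 1 CPM rest on few reads. ULBP2 shares transcript sequence with RAET1L and RAET1G, and PVR, MICA, MICB and NECTIN2 share exon bases with other annotated genes.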

Other observations

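Enzymes that release NKG2D ligands from the surface rose in SUM159, while their calls went both ways in A549. All 6 tested in SUM159 rose with PF-06873600 (background 38.1%; median log2 fold change 1.10, edgeR, with 0 lower also by DESeq2 or at an unadjusted p under 0.05), among them MMP14, a membrane-bound metalloproteinase, by 3.09 ± 0.06 (SE) from 35.5 and 38.3 CPM to 314 CPM in both libraries, and ADAM17, a sheddase of MICA and MICB, by 0.70 ± 0.06. MMP9 went from at most 1 read to 78 and 79 reads. In A549, of 5 tested, 3 rose and 2 fell with palbociclib and indisulam (background 35.1% and 30.0%; median 0.24), with MMP2 at 1.49 ± 0.05 and ADAM17 at -0.39 ± 0.07, and 1 rose and 2 fell with PF-06873600 (background 28.5% and 27.8%; median 0.06). The response to PF-06873600 was higher in SUM159 than in A549 for 5 of the 6 in the test of the difference (background 25.8%; median 0.91), MMP9 being the one without a call.

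Genes that act on the stability of PD-L1 protein, among them the D cyclins and the adaptor SPOP, moved in shares near those of all genes. The combination in A549 raised 5 and lowered 3 of 11 (background 35.1% and 30.0%; median 0.14), with CCND1 at 1.84 ± 0.05, CCND3 at 0.62 ± 0.05 and SPOP at -0.53 ± 0.07. PF-06873600 raised 4 and lowered 2 of 11 in A549 (background 28.5% and 27.8%; median 0.09) and raised 4 and lowered 4 in SUM159 (background 38.1% and 35.6%; median 0.02), where CCND2 rose by 3.78 ± 0.24 and CUL3 had -0.69 ± 0.06. In A549, CCND2 went from 0 reads to 29 and 34 with the combination.

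DNA damage and stress genes known upstream of NKG2D ligands moved apart between the A549 treatments. With the combination 7 of 9 fell and 2 rose (background 30.0% lower and 35.1% higher; median -0.39), E2F2 by -2.93 ± 0.20 and E2F1 by -0.83 ± 0.11. With PF-06873600 6 rose and 3 fell (background 28.5% and 27.8%; median 0.33), E2F1 by 0.82 ± 0.10. In SUM159 2 rose and 5 fell (background 38.1% and 35.6%; median -0.37), with CHEK1 at -0.86 ± 0.06. The difference between the A549 treatments was not tested.

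Receptors of these ligands on immune cells summed to at most 2.05 CPM over 7 genes in every library.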
